A study of Mus musculus with 4 samples.

Results

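The regions described here are 10584 distal ATAC-seq peaks that the wild-type (WT) list of mouse hair follicle stem cells held and the Irx5KO list did not. They were chosen by position and by the authors' peak score: a WT peak on chromosomes 1 to 19, with a score at or above the median of its list, with no base shared with any Irx5KO peak, and with its midpoint more than 1000 bp from both ends of every protein-coding gene. They were 2.12% of the 499794 peaks of the WT list, and 4.85% of its 218113 high-score distal peaks. The other 207529 high-score distal WT peaks overlapped an Irx5KO peak and are called shared WT peaks below. The same rule, with the lists exchanged, took 7843 of 210520 high-score distal Irx5KO peaks, or 3.73%, and these serve as the counterpart.

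ATAC-seq marks open chromatin through the cuts of the transposase Tn5. The study profiled 2 samples labelled Irx5KO and 2 labelled WT, all of them hair follicle stem cells that were sorted from mice as Ly-6A/E-, CD34+ and CD45f+, the last marker spelled as in the labels. The labels give no allele, age, sex or strain for either genotype, nor what an Irx5KO animal carries beyond that name. The deposited data were 1 peak list per genotype, made from both of its samples, with 486180 peaks for Irx5KO and 499794 for WT. No spread between samples could be computed, no test between genotypes was run, and a peak that is missing from a list may still have had reads there. Intervals in brackets are 95% Wilson intervals, which treat peaks as independent and cover counting error only.

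Hair follicle stem cells lie dormant in the follicle's bulge and are set in motion at the start of each hair growth phase by signals from neighbouring cells. Irx5 encodes a transcription factor of the Iroquois homeobox family, whose genes sit in clusters with long stretches of regulatory DNA between them. Peaks far from gene ends are where enhancers, insulators and other distal elements of such genes are usually found, but a peak alone does not say which of these it is or which gene it acts on.

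A few of these regions can be shown as sequence, because they lie on the start of a long noncoding RNA gene. The table of RefSeq start windows used here covers 18 of the 19 chromosomes and 10189 of the WT-only peaks. Of its 31396 windows, each with 250 bases before and 50 after the gene start, 13 lay under 1 of the WT-only peaks, and all 13 belonged to lncRNA genes. The rule itself keeps protein-coding starts away, since it sets a distance from protein-coding gene ends. Of these 10189 WT-only peaks, 0.128% (0.0746 to 0.218) touched a start window, against 0.824% (0.785 to 0.865) of 199610 shared WT peaks, which were wider. The 5 windows with the most bases under a WT-only peak are shown because they are the longest stretches of member DNA that could be read. They are RefSeq sequences of GRCm38.p6, the assembly named mm10, printed 5′ to 3′ on the strand of the lncRNA gene, with the bases under the peak in capitals.
Gm46183, chr10:121796052-121796351, + strand: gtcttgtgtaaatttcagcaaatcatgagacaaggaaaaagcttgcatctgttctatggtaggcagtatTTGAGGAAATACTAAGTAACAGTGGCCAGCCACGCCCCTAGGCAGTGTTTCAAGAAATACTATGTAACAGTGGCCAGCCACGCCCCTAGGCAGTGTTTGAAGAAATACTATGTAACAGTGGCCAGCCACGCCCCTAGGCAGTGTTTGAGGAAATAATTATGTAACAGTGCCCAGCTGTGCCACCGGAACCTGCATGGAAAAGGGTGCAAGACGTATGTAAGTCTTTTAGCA
Gm31704, chr17:88625450-88625749, - strand: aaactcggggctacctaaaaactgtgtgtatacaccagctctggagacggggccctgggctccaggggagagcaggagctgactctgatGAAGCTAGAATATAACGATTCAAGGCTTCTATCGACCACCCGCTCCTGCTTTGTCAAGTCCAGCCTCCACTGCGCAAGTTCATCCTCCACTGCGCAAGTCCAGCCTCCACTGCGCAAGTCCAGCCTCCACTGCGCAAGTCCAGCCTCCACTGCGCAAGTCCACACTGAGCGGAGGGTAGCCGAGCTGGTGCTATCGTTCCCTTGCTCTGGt
Gm38597, chr19:56980575-56980874, + strand: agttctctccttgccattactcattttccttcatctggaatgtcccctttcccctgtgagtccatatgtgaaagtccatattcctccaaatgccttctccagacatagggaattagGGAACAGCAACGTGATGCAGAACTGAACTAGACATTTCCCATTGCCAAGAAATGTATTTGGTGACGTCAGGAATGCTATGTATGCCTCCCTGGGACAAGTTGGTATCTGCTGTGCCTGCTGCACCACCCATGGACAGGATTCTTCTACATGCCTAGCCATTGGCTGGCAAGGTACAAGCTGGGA
Gm39799, chr2:38502343-38502642, - strand: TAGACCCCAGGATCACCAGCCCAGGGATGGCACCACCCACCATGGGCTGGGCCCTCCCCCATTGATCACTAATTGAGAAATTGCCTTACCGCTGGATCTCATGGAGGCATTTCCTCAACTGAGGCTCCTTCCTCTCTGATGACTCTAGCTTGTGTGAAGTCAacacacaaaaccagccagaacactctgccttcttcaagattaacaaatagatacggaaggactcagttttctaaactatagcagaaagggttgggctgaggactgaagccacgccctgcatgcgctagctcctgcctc
Gm34144, chr5:72563017-72563316, + strand: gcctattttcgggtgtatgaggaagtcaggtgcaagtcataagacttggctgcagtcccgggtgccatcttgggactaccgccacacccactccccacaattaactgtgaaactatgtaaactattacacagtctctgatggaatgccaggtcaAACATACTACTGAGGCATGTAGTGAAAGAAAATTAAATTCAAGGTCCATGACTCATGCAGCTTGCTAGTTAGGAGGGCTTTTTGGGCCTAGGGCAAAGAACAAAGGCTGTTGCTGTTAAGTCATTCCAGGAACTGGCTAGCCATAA

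The peak on the Gm46183 start was 370 bp wide with 231 bases in the window, and it lay inside the protein-coding gene Srgap1, 15.3 kb from its nearer end. The peak at Gm31704 was 210 bp wide, lay wholly inside the window and inside Ston1, and was 230 bp away from the nearest Irx5KO peak. The peaks at Gm38597 and Gm39799 lay inside Afap1l2 and Nek6, at 70 bp and 8680 bp from the nearest Irx5KO peak. The peak at Gm34144, 3.65 kb outside Nfxl1, was 50 bp away from an Irx5KO peak. So a region absent from the Irx5KO list could lie almost against an Irx5KO peak or several kilobases from any. Base composition of the 13 windows was 46.3% G and C at the median, between 30.7% and 57.7%, against 48.3% over 11311 lncRNA windows and 53.0% over all windows.

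The 13 windows were searched on both strands for 4 short words, none of which contains another. ACANNTGT, where N is any base, is a palindromic word described for Iroquois proteins. It was in 0 of the 13 windows, against 7.39% of all windows and 9.80% of lncRNA windows. TGACTCA, the word of AP-1 factors, was in 2 windows, those of Gm34144 and Gm29906, against 5.26% of all windows and 6.25% of lncRNA windows. ATCAAAG, the word of TCF and LEF factors, was in 1 window, against 3.76% of all and 4.66% of lncRNA windows. TATAAA was in 2, against 13.6% of all and 15.2% of lncRNA windows. In the Gm34144 window the TGACTCA stands in the capital letters, under the peak. With 13 windows these counts describe the windows and nothing more.

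The WT-only peaks were narrow. Their median width was 270 bp, with quartiles of 230 and 360 bp, and 95% of them were at most 530 bp wide. The shared WT peaks had a median width of 640 bp, with quartiles of 410 and 1360 bp. No peak was under 200 bp, and 981 WT-only peaks (9.27%) had exactly that width, against 0.559% of the shared WT peaks. Only 4 WT-only peaks were wider than 1000 bp, the widest at 1490 bp, whereas 33.3% of the shared WT peaks were. The Irx5KO-only counterpart had the same median of 270 bp, with quartiles of 220 and 350 bp.

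Width and membership are linked in the rule, since a wider interval has more bases that can meet an Irx5KO peak. Score differed too, with a median of 239 for WT-only and 384 for shared WT peaks. The parts of width and score in the shares below were not separated. Among high-score distal WT peaks of 200 bp, 45.8% were WT-only. The share was 21.6% at 210 to 300 bp, 5.75% at 310 to 500 bp, 1.11% at 510 to 1000 bp and 0.00580% above 1000 bp. In all, the WT-only peaks covered 3.28 Mb of the 312 Mb that high-score distal WT peaks covered. The comparisons with shared WT peaks for gene bodies, gene ends, orientation and other genes are therefore also given with the shared peaks weighted to the widths of the WT-only peaks, in 5 classes. The WT-only shares by class of distance from gene ends were not weighted.

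**Figure D1:**
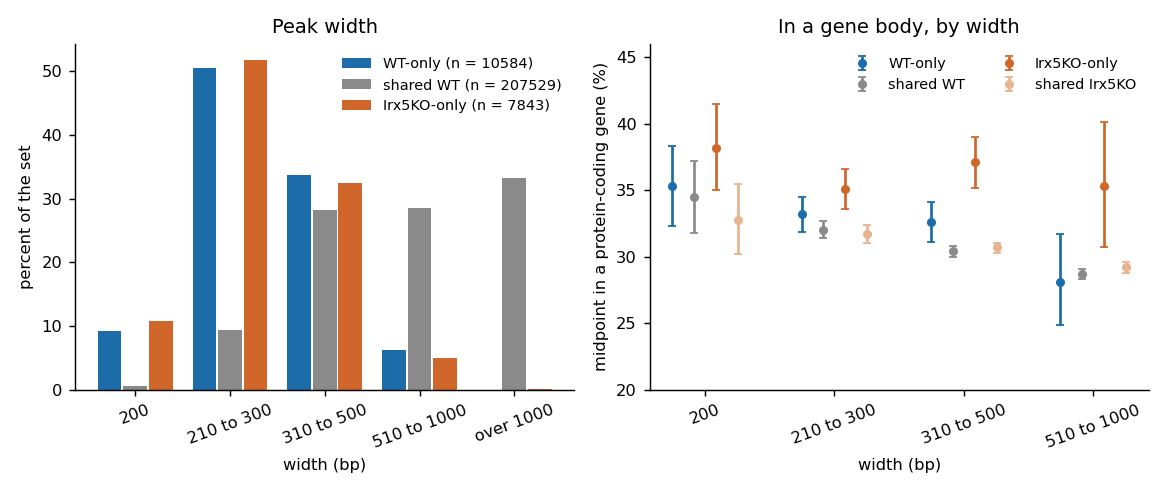
Left, percent of each set in 5 width classes (bp) for WT-only, shared WT and Irx5KO-only high-score distal peaks. Right, percent of peaks with the midpoint in a protein-coding gene body in the first 4 width classes, with 95% Wilson intervals (axis from 20%): Irx5KO-only peaks sit above shared Irx5KO peaks in each class, while WT-only peaks lie within 2.2 points of shared WT peaks.

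Scores, which are the authors' own value per peak and rank peaks only within a list, were low among the WT-only peaks. Their median was 239 with quartiles of 214 and 281, above the threshold of 197, against a median of 384 for the shared WT peaks. The threshold fell in a dense range: 1554 WT-only distal peaks scored 197 to 206 and were taken, and 2026 scored 187 to 196 and were not, with a median width of 270 bp in both. At the gene-end border, 17 of the WT-only peaks had their midpoint 1001 to 1100 bp from a gene end, and 20 high-score WT-only peaks at 901 to 1000 bp were left out. At the overlap border, 6 WT-only peaks touched an Irx5KO peak without sharing a base, and 40 high-score distal peaks counted as shared had less than 10% of their length covered.

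A few WT-only peaks scored far above the rest. The 99th percentile was 535, and 10 peaks were above 1000. The highest, chr7:26779881-26780090, was 210 bp wide with a score of 19348, place 79 of the whole WT list, and lay 7.36 kb outside Cyp2b19, a cytochrome P450 gene known from keratinocytes. The next within 50 kb of a gene scored 1766 and lay 19.7 kb outside Ceacam2, a cell adhesion gene. A further 6 of the 10 highest within 50 kb scored 837 to 979. They lay inside Tpd52l1, Cacna1a (a calcium channel subunit), Tmco5b and Abi3bp (an extracellular matrix protein), and outside Ktn1 (kinectin, a membrane protein that binds kinesin) and Rp1l1.

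High-scored WT-only peaks far from genes were of the same narrow kind. Named here after their values were seen, the peaks nearest Pex2, Cdh11 and Gdf6 scored 11030, 8032 and 7546 with widths of 350, 210 and 270 bp, at 471, 607 and 96.9 kb from the gene end. A peak inside Brip1, a helicase gene of the Fanconi pathway, scored 1268 and lay 59.0 kb from the nearer end of the gene and 2.72 kb from the nearest Irx5KO peak. The distance to an Irx5KO peak was not uniform at the top of the range: 70 bp for the Pex2 peak, 7.96 kb for the Cdh11 peak and 17.4 kb for the Abi3bp peak.

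Gene bodies held 3477 of the WT-only peaks, or 32.9% (32.0 to 33.8), against 27.2% (27 to 27.4) of the shared WT peaks. Peak width moved with this difference. Within the class of 210 to 300 bp, which held 5355 of the WT-only peaks, 33.2% (31.9 to 34.5) of them and 32.0% (31.4 to 32.7) of the shared WT peaks lay in a gene body. At 310 to 500 bp the shares were 32.6% (31.1 to 34.1) and 30.4% (30.0 to 30.8), and this was the class up to 1000 bp whose intervals did not overlap. Weighted to the widths of the WT-only peaks, the share of shared WT peaks was 31.5%. The excess in gene bodies was thus 5.6 points at all widths together and 1.4 points at matched width.

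The Irx5KO-only counterpart lay in gene bodies more often, at 36.1% (35.0 to 37.1), against 31.4% for shared Irx5KO peaks weighted to the same widths. Its share was above that of shared Irx5KO peaks in each of the 4 classes up to 1000 bp, for example 37.1% (35.2 to 39.0) against 30.7% (30.3 to 31.0) at 310 to 500 bp. Within the WT-only peaks the share in gene bodies was 31.1% (29.4 to 32.9) in the lowest of 4 equal groups by score and 35.3% (33.5 to 37.2) in the highest, but the WT-only distal peaks with a score under the threshold were at 34.8% (34.5 to 35.1), so the share did not climb with score over the whole list. With 1 list per genotype, whether the WT-only and Irx5KO-only shares differ beyond the spread between animals was not tested.

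Most of the WT-only peaks were far from any gene end. The median distance to the nearest end of a protein-coding gene was 65.5 kb, with quartiles of 17.3 and 226 kb, against 69.8 kb for shared WT peaks and 51.2 kb for the Irx5KO-only peaks. Weighted to the same widths, the shared WT peaks had a median of 62.8 kb, which turns the direction of that comparison, while shared Irx5KO peaks weighted likewise had 63.9 kb. Beyond 50 kb lay 55.2% (54.2 to 56.1) of the WT-only peaks and 50.4% (49.3 to 51.5) of the Irx5KO-only peaks. Peaks inside genes had a median distance of 34.4 kb to the nearer end of a gene, and peaks outside genes 98.2 kb. At all widths together, 4.42% (4.19 to 4.67) of high-score distal WT peaks beyond 500 kb from a gene end were WT-only. At 1 to 5 kb the share was 5.49% (5.14 to 5.86), and neither share was weighted to width.

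At equal distance from gene ends, and at all widths together, peaks inside genes were WT-only more often than peaks outside them. These shares were not matched for width. The gene-body excess given above was 5.6 points at all widths and 1.4 points at matched width. The gap was widest at 5 to 10 kb, where 6.70% (6.11 to 7.33) of peaks inside genes and 4.30% (3.94 to 4.68) of peaks outside genes were WT-only. At 10 to 50 kb the shares were 5.74% (5.45 to 6.05) and 4.28% (4.08 to 4.48). At 1 to 5 kb and beyond 500 kb the intervals overlapped. The Irx5KO-only share fell with distance outside genes, to 2.55% (2.36 to 2.75) beyond 500 kb against 4.42% (4.02 to 4.85) at 1 to 5 kb, while the WT-only share there was 4.39% (4.15 to 4.65) and 5.21% (4.79 to 5.67).

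**Figure D2:**
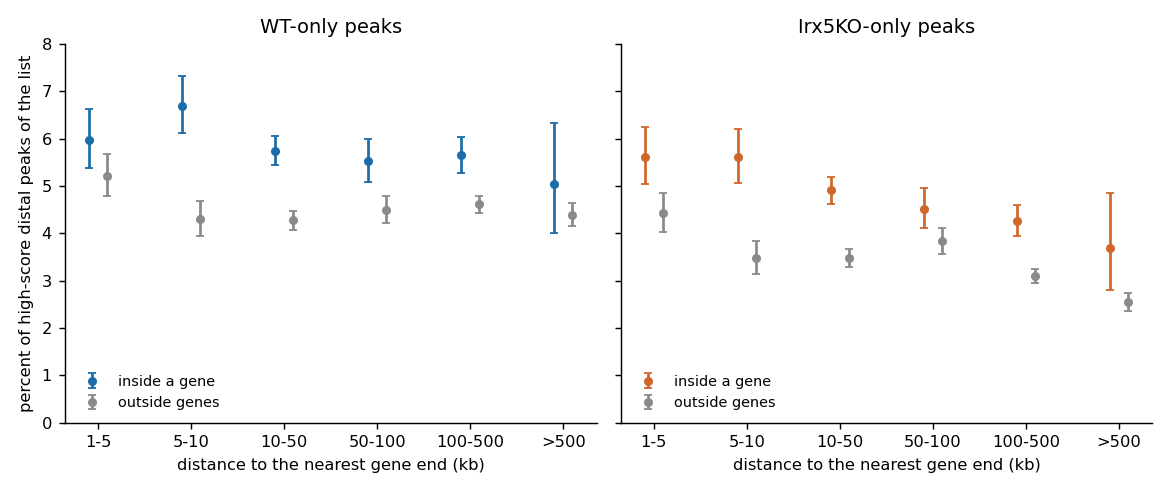
Percent of high-score distal peaks in 1 list only (y axis, with 95% Wilson intervals) by distance from the midpoint to the nearest protein-coding gene end (x axis, kb), inside and outside gene bodies, for WT-only peaks on the left and Irx5KO-only peaks on the right. Inside genes the percent is above that outside genes at each distance, with overlapping intervals at 1 to 5 kb and beyond 500 kb for WT. The values are at all widths and were not matched for width.

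Strand was known for the nearest gene of 3743 of the 4742 WT-only peaks within 50 kb of a gene end. Of these, 32.8% (31.3 to 34.3) lay upstream of the gene, 19.6% inside it on the 5′ side, 19.6% inside it on the 3′ side and 28.1% (26.6 to 29.5) downstream. The nearer end was the 5′ end for 52.3% (50.7 to 53.9) of the WT-only peaks and for 52.2% (51.9 to 52.6) of the shared WT peaks, or 53.3% of these at matched width. Among shared WT peaks 35.4% (35 to 35.7) lay upstream and 32.3% (32 to 32.6) downstream, or 34.4% and 28.9% at matched width. Other annotated genes also lay over some of the peaks: 8.44% (7.92 to 8.98) fell in an lncRNA gene, against 7.43% (7.32 to 7.55) of shared WT peaks and 8.13% of these at matched width. Pseudogenes held 0.605% (0.474 to 0.771) of the WT-only peaks and 1.67% (1.62 to 1.73) of the shared WT peaks, or 0.837% of these at matched width.

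The WT-only peaks were spread widely. The median gap to the next 1 of them was 145 kb, with quartiles of 58.0 and 302 kb, between 40 bp and 4.14 Mb. Within 10 kb of another lay 1105 of them, or 10.4%, and within 100 kb 61.4%. The Irx5KO-only peaks, which were fewer, had a median gap of 201 kb with 8.25% within 10 kb of another.

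Most of them had an Irx5KO peak close by. The nearest Irx5KO peak was at a median of 1.61 kb, with quartiles of 0.500 and 3.81 kb. Of the WT-only peaks 95.2% had an Irx5KO peak within 10 kb. This is not particular to them. Irx5KO-only peaks had a WT peak at a median of 1.87 kb, with 94.8% within 10 kb and 21.1% within 500 bp. The Irx5KO list held 441022 peaks on chromosomes 1 to 19, and the share for positions taken at random was not computed. An Irx5KO peak within 100 bp was found for 724 of them (6.84%) and within 500 bp for 2670 (25.2%). The most isolated was 36.6 kb away from any Irx5KO peak. The nearest other WT peak was at a median of 1.49 kb, and for 69.5% of them that neighbour was a shared peak, near the 73% of all WT peaks on chromosomes 1 to 19 that were shared. Higher-scored WT-only peaks stood farther from Irx5KO peaks, at a median of 1885 bp in the highest of 4 equal groups by score against 1400 bp in the lowest.

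**Figure D3:**
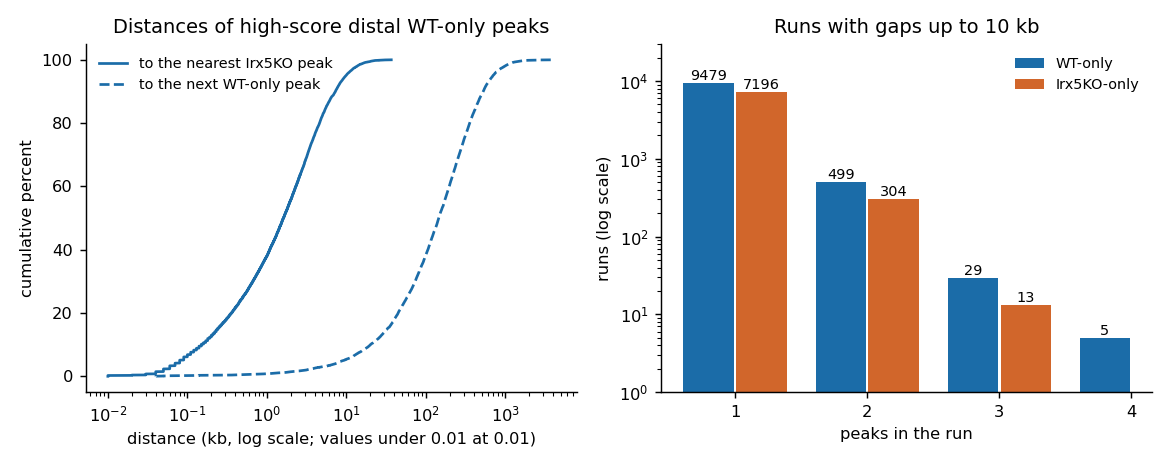
Left, cumulative percent of the 10584 WT-only peaks by distance to the nearest Irx5KO peak and to the next WT-only peak of the set (kb, log scale), with medians of 1.61 and 145 kb. Right, number of runs of 1 to 4 peaks with gaps of up to 10 kb (log scale), WT-only beside Irx5KO-only; runs of 4 appear among the WT-only peaks, 5 of them.

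Joined across gaps of up to 10 kb, 9479 WT-only peaks stood alone, and the rest made 499 pairs, 29 runs of 3 and 5 runs of 4. The Irx5KO-only peaks made 304 pairs, 13 runs of 3 and no run of 4. The tightest run of 4, chr13:76222931-76233060, spanned 10.1 kb inside Fam81b and held 8 WT peaks and 4 Irx5KO peaks in all. The run at chr15:95195801-95208120, outside Nell2, which encodes a secreted glycoprotein of neurons, held 5 WT peaks and 2 Irx5KO peaks. Another, chr6:24321681-24338540, lay 106 kb from Iqub and held 6 WT peaks and 1 Irx5KO peak. The other two lay inside 4921524L21Rik on chromosome 18 and 33.2 kb from Pcgf5 on chromosome 19. Members of these runs were as narrow as the rest, at 200 to 410 bp, with scores of 197 to 451.

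In windows of 1 Mb the WT-only peaks were present almost throughout. Of 2413 windows with a high-score distal peak, 81 (3.36%) held no WT-only peak, the median was 4 and the highest count 15. At chr19:51000001-52000000, a window without protein-coding genes next to Sorcs1, which encodes a neuronal sorting receptor, 15 of 125 high-score distal WT peaks (12%) were WT-only, and 1 of 107 high-score distal Irx5KO peaks was Irx5KO-only. At chr3:17000001-18000000, near Cypt12, 15 of 165 were WT-only and 1 of 141 Irx5KO-only. Among the 14 windows with 12 or more WT-only peaks, the one with the highest share was chr6:139000001-140000000, around Rergl and Pik3c2g, with 13 of 78 (16.7%) WT-only and 2 of 64 Irx5KO-only. Not every full window leaned this way. At chr2:19000001-20000000, around Etl4 and Otud1, 14 of 139 were WT-only and 9 of 131 Irx5KO-only. These windows were picked for their counts, so the values describe them only.

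By chromosome, the WT-only percent of high-score distal WT peaks was lowest on chromosome 7, at 3.97% (3.65 to 4.31), and highest on chromosome 19, at 5.89% (5.27 to 6.58), with chromosome 11 at 5.79% (5.30 to 6.31). Widths moved with part of this: the percent that the widths of its peaks alone would give was 4.06% for chromosome 7, 5.44% for chromosome 19 and 5.54% for chromosome 11, each within the chromosome's interval. Chromosome 8 was an exception, at 5.58% (5.17 to 6.03) against 5.09% given by width. Per length the WT-only peaks numbered 3.84 per Mb on chromosome 7 and 5.02 per Mb on chromosome 19. For Irx5KO-only peaks chromosome 7 was again the lowest, at 3.17% (2.89 to 3.48), next to chromosome 12 at 3.18% (2.86 to 3.53). The highest there was chromosome 11, at 4.81% (4.36 to 5.30).

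**Figure D4:**
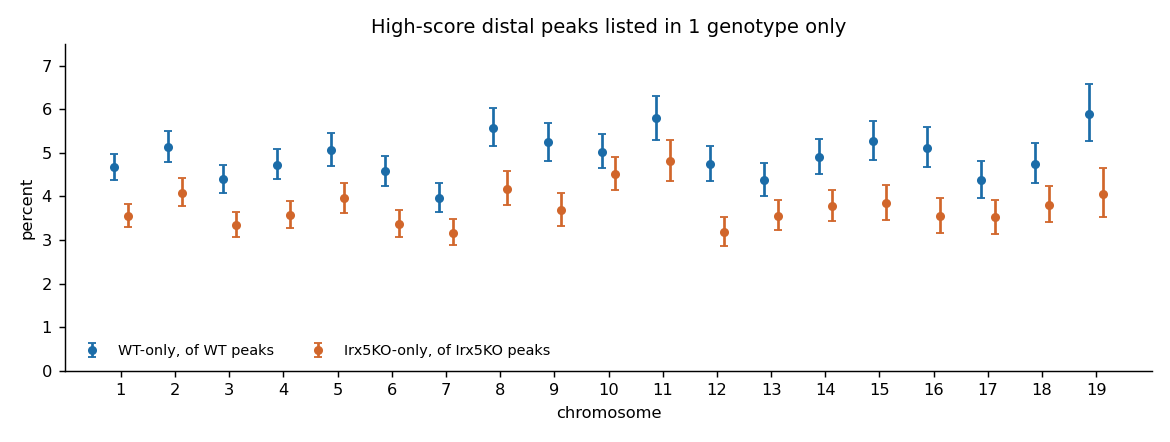
Percent of high-score distal peaks of each list that were in that list only, by chromosome, WT-only left of Irx5KO-only, with 95% Wilson intervals. WT-only values run from 3.97% on chromosome 7 to 5.89% on chromosome 19.

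Each WT-only peak within 50 kb of a protein-coding gene end was assigned to the gene with the nearest end, which names a neighbour and not a target. This placed 4742 WT-only peaks, 4.99% of the 95070 high-score distal WT peaks so placed, and 3888 Irx5KO-only peaks, 4.19% of 92820. Of 16045 genes with a high-score distal WT peak, 3851 (24.0%) had at least 1 WT-only peak. Most of these genes, 3115, had 1, while 609 had 2, 104 had 3 and 23 had 4 or more. For Irx5KO-only peaks 12 genes had 4 or more. Both kinds of peak were present at 1108 genes, 28.8% of the genes with a WT-only peak and 33.7% of the 3291 genes with an Irx5KO-only peak. Over all 16045 genes with a high-score distal WT peak, 19.1% had an Irx5KO-only peak, and genes with more peaks have more chances to hold both kinds.

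The 12 genes with the most WT-only peaks were of varied function. Fam81b led with 6 of its 21 high-score distal WT peaks, 5 of them inside the gene, and 1 of its 17 Irx5KO peaks was Irx5KO-only. 4921524L21Rik, Nell2 and Plppr5, a membrane protein of the phospholipid phosphatase family, followed with 5 of 37, 5 of 19 and 5 of 17. None of these had an Irx5KO-only peak among 32, 14 and 11 Irx5KO peaks. Then came, with 4 each, 1700016C15Rik, Adgrb1 (an adhesion receptor), Dgkb (a diacylglycerol kinase), Dip2c, Fgf10, Glra1 (a glycine receptor subunit), Kif5b (a kinesin motor) and Klf4. As these genes were taken for their WT-only counts, the counts carry no weight of their own.

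Klf4 and Fgf10 are the members of this group best known from skin. Klf4 encodes a transcription factor of the epidermal barrier, and its 4 WT-only peaks, of 10 high-score distal WT peaks within 50 kb, all lay outside the gene, at 9.29, 14.6, 34.6 and 38.7 kb, with scores of 213 to 300 and widths of 220 to 360 bp. No Irx5KO-only peak was among the 5 Irx5KO peaks there. At any distance Klf4 had 6 Irx5KO-only peaks of 39 and 4 WT-only peaks of 36, so the higher share was then the Irx5KO-only one. Fgf10 encodes a growth factor of the mesenchyme that acts on epithelium, and 4 of its 13 WT peaks were WT-only, 1 inside the gene and 3 outside at 15.7, 34.5 and 40.2 kb, against 0 of 10 Irx5KO peaks. Their distance to the nearest Irx5KO peak was 1.46 to 7.68 kb. Dgkb, a long gene, had all 4 of its WT-only peaks inside, 3 of them between 17.2 and 27.1 kb from its nearer end.

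With the limit of 50 kb lifted, genes beside large gene-poor stretches came first, because more peaks have them as nearest gene. Lrrc4c, a synaptic adhesion gene, had 23 WT-only peaks of 526 high-score distal WT peaks (4.37%), close to the 4.85% over all genes. Cdh8, Epha7, Dpp10 and Pcdh9 had 21 to 22, or 4.67% to 6.81% of their peaks. Sorcs1 was apart from these, with 21 of 189 (11.1%), against 9 Irx5KO-only peaks of 169. None of the 12 genes that led within 50 kb was among the first 12 without the limit.

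Among the gene lists, those of the stem cells themselves were near the background of 4.99%. Genes named for a list or family here and below were taken for their WT-only counts, so these counts carry no weight of their own. Within 50 kb 4.19% of high-score distal Irx5KO peaks were Irx5KO-only, so a gene with few Irx5KO peaks will often hold none. For the 23 genes of hair follicle stem cell identity, 8 of 131 high-score distal WT peaks were WT-only, or 6.11% (3.13 to 11.6), against 6 of 126 Irx5KO-only. Lgr5, a receptor for R-spondins that marks these cells, had 2 WT-only peaks of 9, 1 inside the gene at 47.7 kb from its nearer end with a score of 372 and 1 outside at 8.67 kb with a score of 254, and no Irx5KO-only peak of 5. Nfib, a transcription factor of the same cells, had 2 of 10, and no Irx5KO-only peak of 7. For quiescence genes with BMP and FGF18 signalling the counts were 4 of 80 WT-only, or 5.0% (2.0 to 12.2), and 8 of 94 Irx5KO-only. The cell cycle inhibitor gene Cdkn1b had 1 of 2, at 21.3 kb with a score of 312, and the BMP receptor gene Bmpr2 1 of 5.

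Genes of hair growth activation, with WNT and SHH signalling, had 15 of 174 WT-only peaks, or 8.62% (5.29 to 13.7), against 12 of 169, or 7.10% (4.11 to 12), Irx5KO-only. The 15 peaks lay at 12 of the 33 genes, 4 of them at Fgf10 and 1 of 7 at Cdh3, which encodes P-cadherin. The lower bound is above 4.99%, but the widths of the list's peaks alone would give 6.47%, which is inside the interval. Without the limit of 50 kb the list had 39 of 517 (7.54%) WT-only and 22 of 496 (4.44%) Irx5KO-only.

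DNA repair genes, named in the study's title as a process of interest, were also near the background. Homologous recombination and Fanconi genes had 9 of 150 WT-only peaks, or 6.0% (3.19 to 11), and 2 of 133 Irx5KO-only, or 1.5% (0.413 to 5.32), with 6.06% and 3.96% given by width alone. Rad51c, a homologous recombination gene, had 2 of its 4 WT peaks WT-only, both inside the gene and with scores of 251 and 216. The helicase gene Blm had 1 of 4. Genes of end joining and break signalling had 6 of 92, or 6.52% (3.02 to 13.5), and 3 of 80 Irx5KO-only. Polq, the polymerase of microhomology-mediated joining, had 2 of 12 and 1 of 12 Irx5KO-only, and Xrcc4, the partner of DNA ligase IV, 2 of 26 and 0 of 20.

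The Iroquois genes had 3 of 27 WT-only peaks, or 11.1% (3.85 to 28.1), and 2 of 30 Irx5KO-only. At Irx5 1 of 8 high-score distal WT peaks within 50 kb was WT-only, chr8:92320751-92321190, which was 440 bp wide with a score of 206, lay 36.8 kb outside the gene and was 2.45 kb away from the nearest Irx5KO peak. At any distance Irx5 was the nearest gene of 5 WT-only peaks of 29, against 2 Irx5KO-only of 25. The other 4 lay 65.3, 76.3, 148 and 188 kb from the gene, with scores of 347, 208, 212 and 288 and with 14.6, 5.70, 7.39 and 1.52 kb to the nearest Irx5KO peak. Irx3, its neighbour in the cluster, had 2 of 5 at 22.9 and 27.9 kb, with scores of 216 and 213. The deposited lists do not show which bases the Irx5KO allele lacks, so these regions were not set against it.

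Markers of other skin cells were looked at because a sort can carry such cells along. Fibroblast and dermal papilla genes had 9 of 88 WT-only peaks, or 10.2% (5.47 to 18.3), with 8.37% given by width alone, and 4 of 73 Irx5KO-only. The 9 peaks lay at 8 of 15 genes, among them Lum, a matrix proteoglycan gene, with 2 of 11, and Col1a1, a collagen gene, with 1 of 2. Of the Irx5KO peaks, 1 of 8 at Lum and 0 of 1 at Col1a1 were Irx5KO-only. Epidermis and upper follicle genes had 4 of 40 WT-only, a share with the interval from 3.96% to 23.1%, and 0 of 35 Irx5KO-only. Melanocyte genes had 5 of 86 WT-only and 10 of 90 Irx5KO-only, immune genes 5 of 77 and 8 of 75, endothelial genes 5 of 80 and 7 of 83, and sebaceous gland genes 5 of 58 and 2 of 54. Nerve, Schwann and muscle genes had 1 of 41, or 2.44% (0.432 to 12.6), and 7 of 42 Irx5KO-only, or 16.7% (8.32 to 30.6). The part of other cells in these counts was not tested.

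The remaining lists gave small counts: hair shaft and inner root sheath genes 2 of 28, housekeeping genes 1 of 36, and long neuronal adhesion and synapse genes 26 of 452, or 5.75% (3.96 to 8.29). In all, 14 of the 16 gene lists had a WT-only percent above 4.99%. Among peaks at or above the 75th percentile of score 5 of the 16 were above the 0.671% found there. The other lists held no WT-only peak there, so with a background this low the count cannot show whether they changed. For 2 lists the whole interval was above 4.99%, the activation genes and the fibroblast and dermal papilla genes. Neither kept this throughout: at any distance the fibroblast and dermal papilla genes were at 6.53% (4.22 to 9.97), and above the 75th percentile of score the activation genes were at 1.19% (0.210 to 6.44). The intervals of all 16 held the percent that the widths of their own peaks would give. Kit, in both the immune and the melanocyte list, counts in each.

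Of the 17 gene families 13 were under 4.99%, and for 7 the whole interval was. Of high-score distal WT peaks nearest olfactory receptor genes 134 of 4283 were WT-only, or 3.13% (2.65 to 3.69), against 78 of 4061, or 1.92% (1.54 to 2.39), Irx5KO-only. Vomeronasal receptor genes had 58 of 3618, or 1.60% (1.2 to 2.07), and secretoglobins with Esp pheromone peptides 3 of 638, or 0.470% (0.160 to 1.37). Peaks near these families were wide, with medians of 750, 1160 and 1430 bp, and width alone would give 3.73%, 2.31% and 1.53%. For these 3 of the 17 families the interval lay under the percent given by width as well. Cytochrome P450 genes, 31 of 1017, defensins, 3 of 276, Pramel genes, 8 of 411, and zinc finger genes of the Zfp group, 66 of 2038, had intervals under 4.99% that held their width-based percent.

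The 4 families above 4.99% were solute carriers, cadherins and protocadherins, keratins, and Duxbl with Speer genes. Solute carriers had 102 of 1764, or 5.78% (4.79 to 6.97), with Slc4a7, a bicarbonate transporter gene, at 4 of 18. Cadherins and protocadherins had 30 of 458, or 6.55% (4.63 to 9.20), with 3 of 21 at Pcdh20. Keratins had 5 of 52, or 9.62% (4.18 to 20.6), each at a different gene, with 1 of 2 at Krt16, a keratin of stressed epidermis. Duxbl with Speer genes had 6 of 108, or 5.56% (2.57 to 11.6). Of the Irx5KO peaks, 1 of 16 at Slc4a7, 0 of 16 at Pcdh20 and 1 of 2 at Krt16 were Irx5KO-only. Under 4.99% but with intervals that reached above it were killer cell lectin-like receptors (6 of 207 peaks), keratin-associated proteins (3.41%), serpins (2.78%), Skint genes (2.95%), major urinary proteins (2.01%) and Hox genes. Hox genes had 0 of 15, with an interval that reached 20.4%, against 5 of 23 Irx5KO-only. How reads that match several copies of an array gene were treated is not given in the sources used here.

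**Figure D5:**
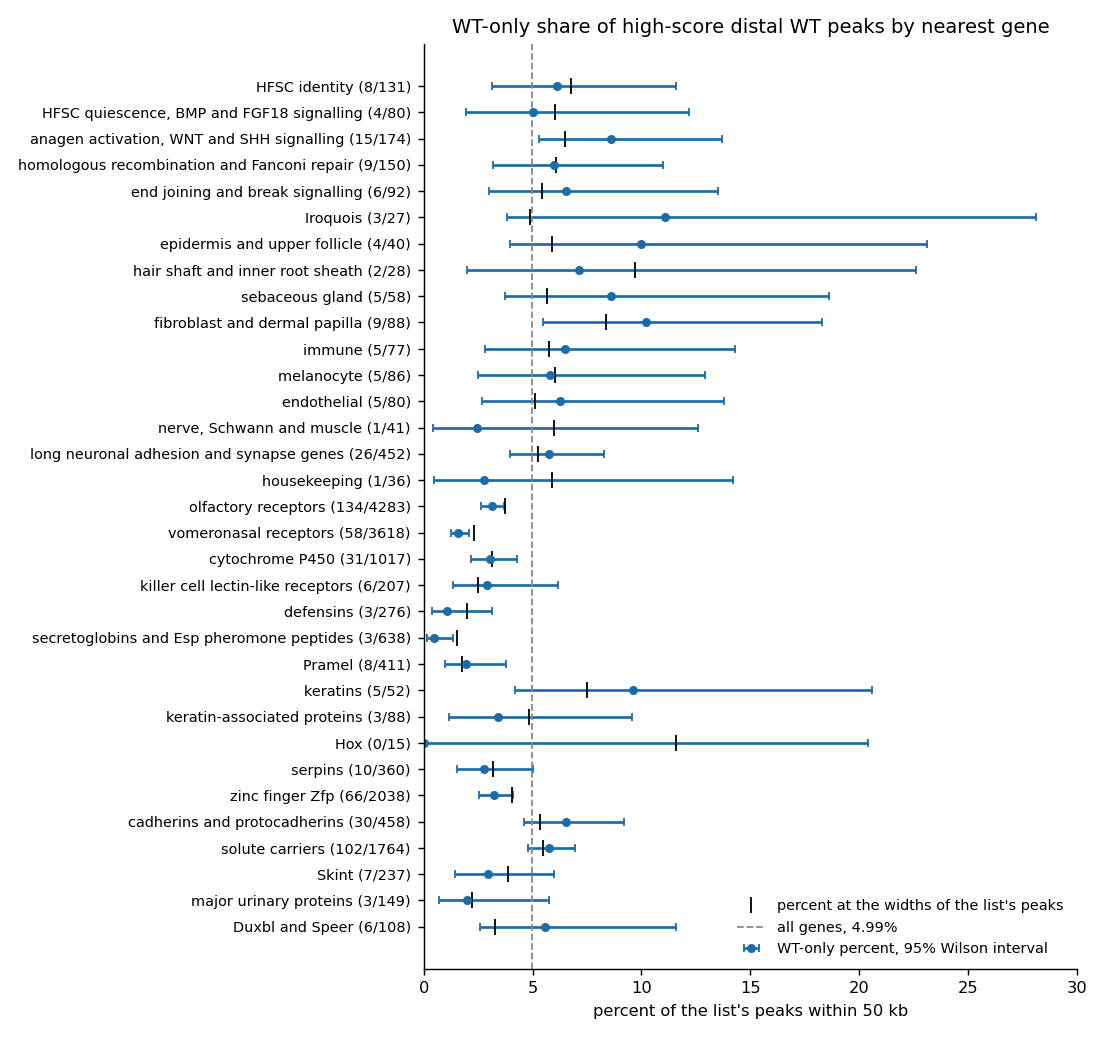
WT-only percent of high-score distal WT peaks within 50 kb, by list of nearest genes (points, with 95% Wilson intervals and counts beside the names), with the percent given by the widths of the list's own peaks (ticks) and the 4.99% over all genes (dashed line). The olfactory, vomeronasal and secretoglobin intervals lie under both marks, and no interval lies above its tick.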

How the data were processed

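ATAC-seq was carried out on 4 samples of sorted hair follicle stem cells, 2 per genotype, with 80 M reads per sample per the labels' protocols. Per the submitters' processing notes the build was mm10, with Bowtie2, cutadapt 2.9 and FastQC, Genrich 0.6, and ChIPseeker 1.24.0 and deepTools 3.4.2. What each did, its settings, any Tn5 shift and the treatment of duplicate and multiply mapped reads: not given in the sources used here. Both samples of a genotype carry the name of the same deposited list per the labels, so each list was taken as pooled. The score in the deposited lists is the authors' own value per peak on an unstated scale, and served to order and filter the peaks of 1 list, with no comparison of scores across lists. The read depth behind each peak is unknown, so a missing peak was not read as closed chromatin.

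Overlap meant at least 1 shared bp. Distances ran from the peak midpoint to the ends of 21887 protein-coding genes of a RefSeq table of GRCm38.p6, the assembly of mm10, which gives gene spans without exons, introns or UTRs. Percents given by width weight 5 width classes of all high-score distal peaks by those of a list, and shared peaks at matched width are weighted to the classes of the WT-only peaks, both additions made after the data were seen. Of 288 gene-list entries 287 matched. Member sequences, base composition and motifs over all members were planned but not run, since no genome was used here; RefSeq start windows were used instead. Start windows on chromosome 18 were not used here.

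The members and the lists were chosen with earlier results of these data known. The defensin pattern was narrowed after it was seen to take an unrelated gene. Named genes were those nearest the 10 highest-scored members within 50 kb, the 12 with the most members, up to 2 per gene list and 1 per family by member count, of which a part is named in the text and some are not reported here; others are said to be chosen after their values were seen, as are the leading runs, 1 Mb windows and genes at any distance. No test was run, since each genotype has 1 list. The rule was tested on simulated data and found 200 of 200 planted regions; bedtools 2.31.1 gave the same 132587 WT-only peaks on the standard chromosomes. Versions were Python 3.11.15, matplotlib 3.10.9, scipy 1.17.1, pandas 2.3.3 and numpy 2.4.6. The alternatives varied the overlap rule, the score threshold, gene-end distance, peak width, chromosomes and assignment distance.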

Additional observations from a re-analysis of the deposited data

How the results depend on the processing

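The score threshold set most values. Among peaks at or above the 75th percentile of score, 730 peaks were WT-only, 0.661% of the peaks there, with 36.6% in gene bodies, a median width of 320 bp, 0.274% within 10 kb of another and 93.6% within 10 kb of an Irx5KO peak. With no threshold there were 118586, or 27.5%, with 34.6%, 250 bp, 69.8% and 96.1% for the same measures. Counting a peak as shared only where Irx5KO peaks covered 50% of it gave 14044 WT-only peaks, or 6.44%, with 31.8%, 320 bp, 14.7% and 96.3%. Counting it as shared where an Irx5KO peak lay within 500 bp gave 7914, or 3.63%, with 35.3% in gene bodies, 8.63% near another and 93.5% near an Irx5KO peak. The WT-only percent was 5.81% among peaks up to 2000 bp wide and 4.75% with chromosome X. Distal limits of 5000 bp, or for the whole peak, moved none of the 6 results beyond its interval. Of the 12 leading genes 1 was among the first 12 above that percentile and 7 were when an Irx5KO peak within 500 bp counted as overlap. The interval lay wholly above the background for the activation and the fibroblast and dermal papilla genes as reported, and for the activation genes alone at any distance. It did so for fibroblast and epidermis genes above the 75th percentile, and for activation, fibroblast and Iroquois genes under the 500 bp rule. Above the 75th percentile the background was 0.671%, so very few peaks in a small list can lift an interval over it. The intervals there were wide, at 5.88% (1.63 to 19.1) for fibroblast and 7.14% (1.27 to 31.5) for epidermis genes. The Iroquois interval under the 500 bp rule, 3.85% to 28.1%, began just above the background. These cases therefore do not show that a list differs from the background. Among families, the whole interval was above the background for 0 as reported and for 2, keratins and solute carriers, under the 500 bp rule. It lay wholly under the background for 7 families as reported, 8 at any distance, 1 above that percentile and 10 under the 500 bp rule. Of the list and family percents 28 moved above that percentile and 10 under the 500 bp rule, where olfactory receptors were at 1.73% and vomeronasal receptors at 0.608%. The value above the background held for 14 gene lists as reported, 11 at any distance, 5 above that percentile and 13 under the 500 bp rule. Above that percentile the other gene lists held no WT-only peak, so the 5 cannot be set against the 14. With shared WT peaks weighted to the widths of the WT-only peaks, an addition made after the data were seen, 2 differences changed sign: WT-only minus shared WT was 2.70 kb in place of -4.30 kb for the median distance to a gene end and -1.0 points in place of 0.10 for the share with the 5′ end nearer. No paired analysis was possible because each genotype has 1 pooled list, and for the same reason no sample could be left out. Depth is unknown, so how far it limits the lists was not tested.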

Other observations

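Peaks on the sex chromosomes stood outside the rule and are given as values. On chromosome X, 808 of 21618 high-score distal WT peaks were WT-only, or 3.74% (3.49 to 4.0), and 476 of 20882 high-score distal Irx5KO peaks were Irx5KO-only, or 2.28% (2.09 to 2.49). On chromosome Y the counts were 99 of 2764, or 3.58% (2.95 to 4.34), and 35 of 2515, or 1.39% (1.0 to 1.93). Both lists held peaks on chromosome Y. Of the WT-only distal peaks on chromosomes 1 to 19 with a score under the median, 108002 in number and outside the rule, 34.8% (34.5 to 35.1) lay in a gene body and the median width was 250 bp.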
